A study of Mus musculus with 11 samples.

Results

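The genes described here are the C-type lectins of the CLEC and CD209 families, taken as all gene symbols of the array that begin with Clec and a digit or with Cd209. There were 39 such genes among the 19505 symbols measured, each with 1 transcript cluster, and a transcript cluster is the set of probes that the array uses for one gene. The cells were LSEC, liver sinusoidal endothelial cells, whose fenestrated layer lines the hepatic capillaries. The 5 knockout arrays came from Atg5lox/lox;VE-cadherin-Cre mice, in which Cre recombinase under the VE-cadherin promoter removes the floxed part of Atg5, a gene needed to form autophagosomes. The 6 wild type arrays came from Atg5lox/lox mice, which carry the same floxed alleles without Cre. All mice were 8 weeks old when they were put on high fat chow, and it was fed for 2 weeks. The VE-cadherin promoter is known to be active also in the embryonic endothelium that gives rise to blood cells, and recombination in myeloid cells was not measured here. Each array was labelled as a biological replicate, and the labels do not say whether mice were pooled. The p-values thus measure only how far these samples spread.

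C-type lectins are receptors and secreted proteins that share a fold first known for binding sugars with the help of calcium. On sinusoidal endothelium and on Kupffer cells, the macrophages of the liver, they take up glycoproteins and bind microbes and dying cells from portal blood. Many of those on myeloid cells signal through the kinase Syk, by a motif of their own or by adaptors such as FcR gamma, while others carry an inhibitory motif that recruits phosphatases. A further group, encoded beside them in the natural killer gene complex, serves as ligands for receptors of natural killer cells.

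Markers of the labelled cell type were bright, and markers of other cells were also measured. All 18 LSEC markers outside the lectins read above the highest of the 23 antigenomic control rows, which carry sequences absent from the genome, in every array. Their mean was 11.68 ± 0.10 (SD, n = 5) in knockout arrays and 11.69 ± 0.11 (SD, n = 6) in wild type arrays on the log2 scale. The mean of 17 Kupffer cell and macrophage markers ran from 7.32 to 9.75 in knockout arrays and from 6.84 to 8.11 in wild type arrays. Of these 17, 14 were higher in knockout by the study's rule, meaning a change of 1.5-fold or more with an unadjusted p no greater than 0.05. The macrophage mean peaked in knockout array 2 (9.75) and, among wild type arrays, in array 5 (8.11). The 12 hepatocyte markers had a mean from 7.92 to 9.60 in knockout arrays and from 8.94 to 10.47 in wild type arrays, and 8 were lower in knockout by the rule. The targeted gene Atg5 read 7.48, 7.57, 7.54, 7.90 and 7.53 in knockout arrays and 7.38 to 7.59 in wild type arrays, with a difference of 0.10 (SE 0.10), and did not separate the genotypes. Where its probes lie relative to the deleted part was not determined, so this signal does not check the labels, and genotype is used here as labelled. In such a mixture, more cells of a type and more RNA per cell cannot be told apart.

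Of the 39 lectins, 3 were higher in knockout by the study's rule and 0 were lower. Over all 22206 clusters the rule called 0.671% higher and 0.356% lower. The 3 were Clec12a, an inhibitory receptor of myeloid cells, Clec4f, a galactose-binding receptor of Kupffer cells, and Clec4a1, a member of the dendritic cell immunoreceptor group. In the limma fit 0 lectins passed an adjusted p of 0.05, as did 0% of all clusters. An unadjusted p of at most 0.05 was found for 4 of the 39 lectins and for 1419 of all 22206 clusters. The lowest adjusted p of a lectin was 0.765. The log2 difference was positive for 18 lectins and negative for 21. Its median was -0.01, against -0.02 over all clusters. The groups overlapped for all 39 lectins, where 0.473% of all clusters had groups that did not.

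**Figure D1:**
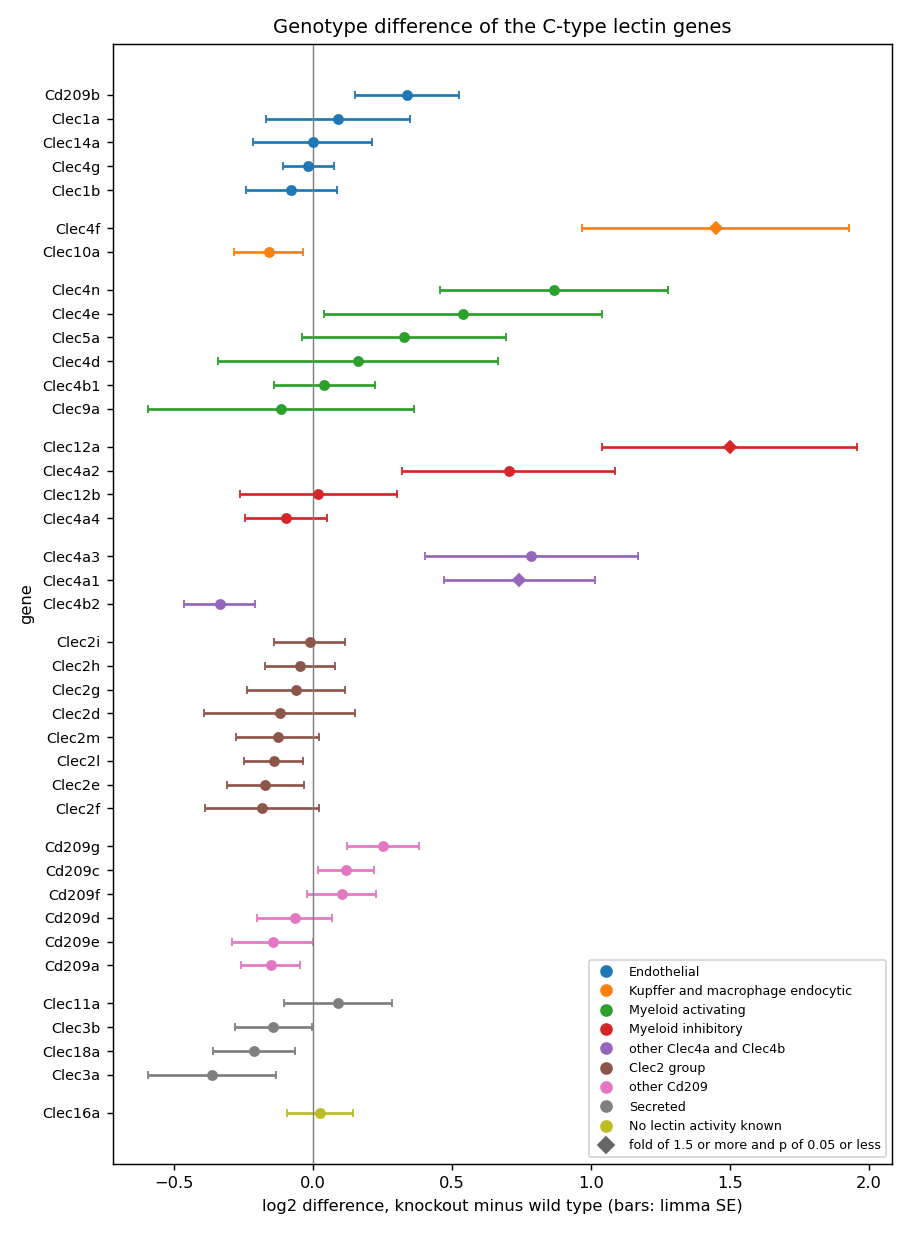
Log2 difference of each of the 39 lectin genes, knockout minus wild type, on the x axis, by role group down the y axis. Points are differences, bars are limma's standard error (5 knockout and 6 wild type arrays), and diamonds mark the 3 genes that met the study's rule, of which Clec12a (1.50) and Clec4f (1.45) lie farthest right.

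The promoters of the 3 called genes are shown because these are the genes that met the rule. They were taken from RefSeq on the build named beside each, from 250 bases before to 50 after the annotated start, and capitals mark matches to GAGGAAG, a motif of the myeloid factor PU.1, or to its reverse complement. The build that the array's own annotation used was not given in the sources used here.

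Clec12a promoter, GRCm38.p6, chr6:129349994-129350293, plus strand: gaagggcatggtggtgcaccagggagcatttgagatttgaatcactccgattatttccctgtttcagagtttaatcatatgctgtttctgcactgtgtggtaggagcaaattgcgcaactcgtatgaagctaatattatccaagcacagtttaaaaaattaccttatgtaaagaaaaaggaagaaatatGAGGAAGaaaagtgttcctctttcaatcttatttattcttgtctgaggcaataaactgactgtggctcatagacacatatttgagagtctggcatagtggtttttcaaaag

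Clec4f promoter, GRCm38.p6, chr6:83656067-83656366, minus strand: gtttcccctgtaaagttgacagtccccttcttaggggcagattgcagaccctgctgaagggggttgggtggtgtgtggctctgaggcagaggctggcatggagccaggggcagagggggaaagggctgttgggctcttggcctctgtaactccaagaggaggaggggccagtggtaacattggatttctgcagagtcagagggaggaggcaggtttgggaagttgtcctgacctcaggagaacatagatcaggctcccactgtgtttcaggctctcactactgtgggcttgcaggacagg

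Clec4a1 promoter, GRCm38.p6, chr6:122921598-122921897, plus strand: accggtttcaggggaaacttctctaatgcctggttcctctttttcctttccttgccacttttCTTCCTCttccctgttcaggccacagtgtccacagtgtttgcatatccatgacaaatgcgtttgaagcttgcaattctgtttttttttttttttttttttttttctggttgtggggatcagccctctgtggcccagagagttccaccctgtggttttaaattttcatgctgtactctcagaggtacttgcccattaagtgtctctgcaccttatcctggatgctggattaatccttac

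The Clec12a window held 1 match on its own strand at -61, and the Clec4a1 window held 1 on the other strand at -188. In the Clec4f window these letters were not found. RefSeq windows were listed for 32 of the 39 lectins. GAGGAAG was found on either strand in 7 of their 34 windows (20.6%), against 13.6% of all 32851 windows. The 7 genes were Clec12a, Clec16a, Clec18a, Clec2h, Clec4a1, Clec4d and Clec5a. AGATAA, a motif of GATA factors, was found in 2 of the 34 windows (5.88%), those of Clec1b and Cd209e, against 11.2% of all windows. No match of one motif overlapped the other. A match is a description of the letters and not of binding.

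Among the 5 endothelial lectins none was called. Clec4g encodes LSECtin, an endocytic receptor of sinusoidal endothelium. It read 13.21, 13.29, 13.12, 13.07 and 13.17 in knockout arrays, and in wild type arrays its lowest, median and highest values were 13.02, 13.22 and 13.28. All 11 values lay within 0.27 of each other, near the top of the scale (the highest value of any cluster was 13.79), and whether signals this bright are compressed was not tested. The difference was -0.02 (95% interval -0.21 to 0.18, exact permutation p = 0.788, n = 5 and 6).

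Clec1b encodes CLEC-2, the podoplanin receptor of platelets, which in mouse liver is also found on sinusoidal cells. It read 11.23, 10.99, 10.77, 10.79 and 11.07 in knockout arrays, against a lowest, median and highest of 10.56, 11.04 and 11.43 in wild type arrays. The knockout values lay inside the wild type range, and the difference was -0.08 (SE 0.16, exact permutation p = 0.671, n = 5 and 6). The means of 5 platelet markers ran from 6.86 to 7.01 in knockout arrays and from 6.99 to 7.35 in wild type arrays, with none of the 5 called. All 5 were lower in knockout, and their mean differed by -0.18 (exact permutation p = 0.017, n = 5 and 6). Their part in the Clec1b values was not tested. Podoplanin (Pdpn), the ligand of CLEC-2, differed by -0.26 (SE 0.13, exact permutation p = 0.074, n = 5 and 6).

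Clec14a, an endothelial receptor of the matrix protein multimerin 2, read 10.35, 10.62, 9.86, 9.62 and 9.78 in knockout arrays, and 9.63, 10.02 and 10.68 as the lowest, median and highest in wild type arrays. Both groups spanned about the same range. Its difference was -0.00067 (SE 0.21), with a 95% interval from -0.46 to 0.46. The ligand gene Mmrn2 averaged 11.25 ± 0.33 (SD, n = 5) in knockout arrays and 11.24 ± 0.33 (SD, n = 6) in wild type arrays.

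Clec1a, a receptor of endothelium and myeloid cells that binds fungal melanin, read 9.81, 9.21, 9.42, 9.06 and 9.04 in knockout arrays. In wild type arrays its lowest, median and highest values were 8.36, 9.38 and 9.92. The wild type arrays spread more widely than the knockout arrays, and the difference was 0.09 (SE 0.26, exact permutation p = 0.768, n = 5 and 6). Cd209b encodes SIGN-R1, which binds dextran and bacterial capsule sugars on sinusoidal endothelium and marginal zone macrophages. It read 8.83, 8.70, 8.50, 7.83 and 8.43 in knockout arrays, against 7.73, 8.15 and 8.50 as the lowest, median and highest in wild type arrays. Knockout array 4 was low, and knockout arrays 1 and 2 exceeded every wild type array. The difference of 0.34 (SE 0.19, exact permutation p = 0.141, n = 5 and 6) did not meet the rule.

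**Figure D2:**
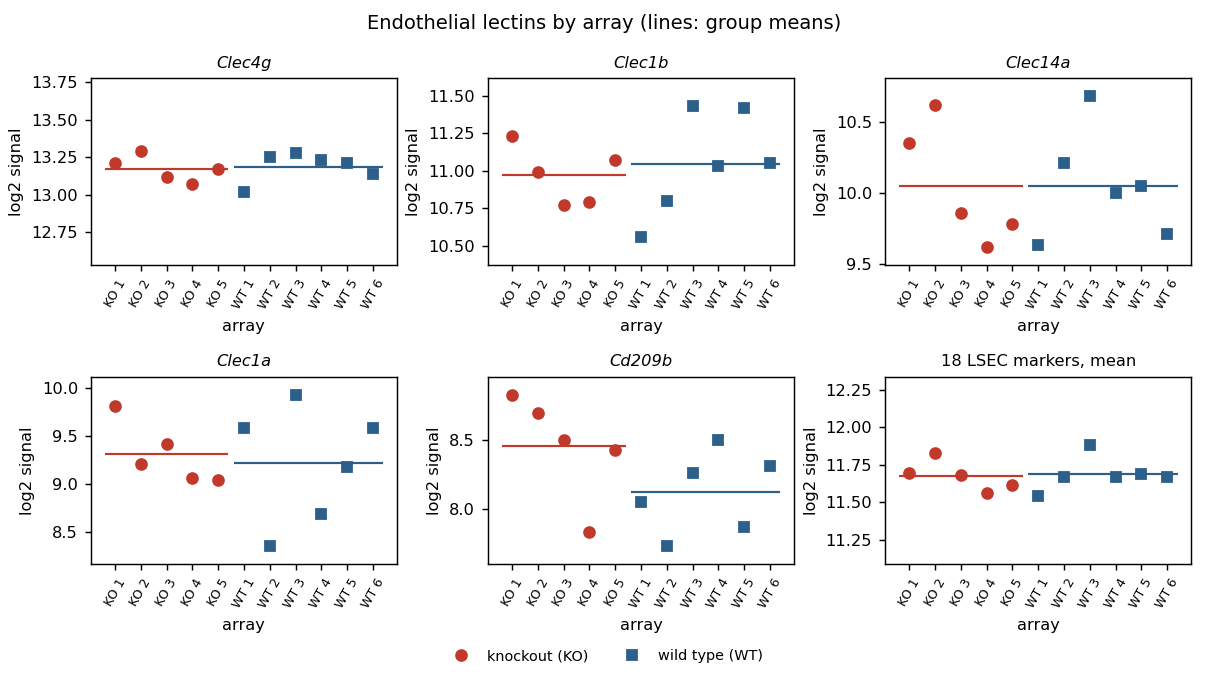
Log2 signal (y axis) of the 5 endothelial lectins and the mean of 18 LSEC markers in each array (x axis), knockout in red and wild type in blue, with lines at the group means. Clec4g stays between 13.02 and 13.29 in all 11 arrays, and the groups overlap in every panel.

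The Kupffer cell lectin Clec4f was 2.73-fold higher in knockout. It read 8.74, 11.14, 8.18, 8.38 and 9.64 in knockout arrays, against a lowest, median and highest of 7.15, 7.62 and 8.93 in wild type arrays. Knockout arrays 2 and 5 lay above every wild type array, while the other 3 overlapped with wild type array 5. The log2 difference was 1.45 (SE 0.48, exact permutation p = 0.024, limma adjusted p = 0.765, n = 5 and 6), and it was 0.97 without knockout array 2. Clec10a, the other macrophage receptor for galactose and N-acetylgalactosamine placed in this group, differed by -0.16 (SE 0.12) and ran from 7.21 to 7.59 in knockout arrays and from 7.30 to 7.79 in wild type arrays.

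Clec12a was 2.83-fold higher. It read 7.93, 9.09, 6.58, 6.68 and 7.31 in knockout arrays, and 5.35, 5.72 and 7.48 as the lowest, median and highest in wild type arrays. The wild type value of 7.48 came from array 5, and the other wild type arrays lay below every knockout array. The log2 difference was 1.50 (SE 0.46, exact permutation p = 0.017, limma adjusted p = 0.765, n = 5 and 6). Without knockout array 2 it fell to 1.11, the lowest on leaving out 1 array, and still met the rule.

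Clec4a1 was 1.67-fold higher, with 7.13, 8.29, 6.64, 7.04 and 6.92 in knockout arrays and a lowest, median and highest of 5.78, 6.50 and 6.96 in wild type arrays. Knockout arrays 1, 2 and 4 lay above every wild type array. The log2 difference was 0.74 (SE 0.27, exact permutation p = 0.017, limma adjusted p = 0.765, n = 5 and 6). It no longer met the rule without knockout array 2 (0.47) or with array weights (0.48).

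None of the other 5 Clec4a and Clec4b genes on chromosome 6 met the rule. The differences of Clec4a3, Clec4a2 and Clec4b1 were above 0 (0.79, 0.70 and 0.04), and those of Clec4a4 (-0.10) and Clec4b2 (-0.34) below. Clec4a3 read 6.59, 7.36, 5.28, 5.67 and 6.0 in knockout arrays, against 4.50, 5.26 and 6.53 as the lowest, median and highest in wild type arrays. Its difference was 0.79 (SE 0.38, exact permutation p = 0.119, n = 5 and 6). It met the rule without wild type array 5 (1.01), knockout array 3 (1.01) or knockout array 4 (0.91), and was 0.49 without knockout array 2.

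Clec4a2, the inhibitory receptor DCIR, read 5.38, 5.87, 3.38, 3.94 and 3.95 in knockout arrays and 3.45, 3.82 and 4.27 as the lowest, median and highest in wild type arrays. Only knockout arrays 1 and 2 lay above the array's own mean of antigenomic rows, and none of the 6 wild type arrays did. Its difference of 0.70 (SE 0.38) is therefore not a measured ratio, and it was 0.36 without knockout array 2 and 0.99, meeting the rule, without knockout array 3. Clec4a4, encoding a related inhibitory receptor of dendritic cells, read below that mean in all 11 arrays.

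The macrophage marker mean peaked in the same arrays as several of these lectins. Knockout array 2 held the highest value of Clec4f, Clec12a, Clec4a1, Clec4a3 and Clec4a2 among all 11 arrays, and array 5 was highest among wild type arrays for each. Below these arrays the lectins differed in order. Clec4f ranked the knockout arrays as the macrophage mean did, and both were lowest of all in wild type array 1 (Clec4f 7.15). The wild type arrays between did not rank alike for these. Clec4a2 was lowest in knockout array 3 (3.38). Wild type array 2 was the lowest of all for Clec12a (5.35), Clec4a1 (5.78) and Clec4a3 (4.50). Its macrophage mean was 7.09, and the lowest such mean was 6.84 in wild type array 1. Across the 39 lectins, 12 had their highest value in knockout array 2. They included Cd209f, Clec11a, Clec16a, Clec2g, Clec2i, Clec4b1 and Clec4g, and the share of all clusters that peaked in this array was not counted. With the mean of the 17 macrophage markers as a covariate, 0 lectins were higher by the rule, and the differences were 0.22 for Clec12a, 0.06 for Clec4f and 0.14 for Clec4a1. This covariate itself differed between genotypes, averaging 8.30 in knockout and 7.21 in wild type arrays (difference 1.09, exact permutation p = 0.022, n = 5 and 6). The fit therefore cannot tell the macrophage mean from genotype. The 9 dendritic cell markers had means from 6.29 to 6.67 in knockout arrays and from 6.38 to 6.71 in wild type arrays, and none was called. In bulk RNA, lectin signal per macrophage was not measured.

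**Figure D3:**
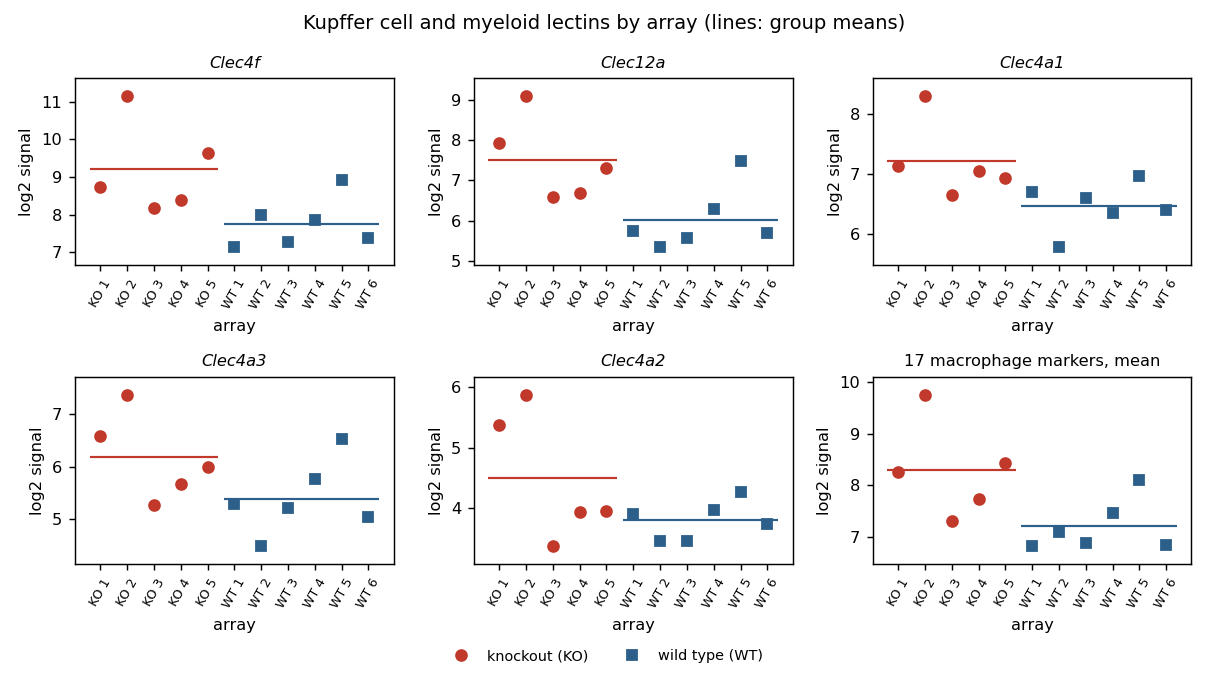
Log2 signal (y axis) of Clec4f, Clec12a, Clec4a1, Clec4a3 and Clec4a2 and the mean of 17 macrophage markers in each array (x axis), knockout in red and wild type in blue, with lines at the group means. In every panel knockout array 2 is the highest of all arrays, and array 5 tops the wild type ones.

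Among the activating receptors that signal through Syk, 0 of 6 measured genes met the rule, and a different array stood out. Clec4n encodes Dectin-2, a receptor for fungal mannans, and read 8.28, 7.99, 5.86, 6.96 and 6.73 in knockout arrays, against 5.46, 6.34 and 7.11 as the lowest, median and highest in wild type arrays. Knockout arrays 1 and 2 lay above every wild type array, and knockout array 3 near the low end. The difference was 0.87 (SE 0.41, exact permutation p = 0.113, n = 5 and 6). It met the rule without wild type array 1 (1.03), wild type array 5 (0.97) or knockout array 3 (1.2). Leaving out knockout array 1 gave 0.59 and leaving out knockout array 2 gave 0.66, neither meeting the rule.

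Clec4e, the receptor Mincle for mycobacterial glycolipids and dying cells, read 10.99, 9.23, 8.44, 10.27 and 8.64 in knockout arrays and 7.37, 9.02 and 9.94 as the lowest, median and highest in wild type arrays. Knockout arrays 1 and 4 lay above every wild type array, and knockout arrays 3 and 5 below the wild type median. Its difference was 0.54 (SE 0.50, exact permutation p = 0.396, n = 5 and 6), and 0.17 without knockout array 1. Clec4d, the partner of Mincle, read 9.81, 7.97, 6.70, 8.22 and 6.86 in knockout arrays and 6.69, 7.76 and 8.62 as the lowest, median and highest in wild type arrays. Apart from array 1, the knockout values lay inside the wild type range. Its difference of 0.16 (SE 0.50) was -0.31 without knockout array 1.

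Clec5a, a receptor that pairs with the adaptor DAP12, read 7.12, 5.09, 4.83, 4.86 and 4.60 in knockout arrays and 4.64, 4.97 and 5.32 as the lowest, median and highest in wild type arrays. Only knockout array 1 stood above the wild type range, and the mean of antigenomic rows was exceeded in 3 of 5 knockout and 4 of 6 wild type arrays. The difference was 0.33 (SE 0.37), and -0.13 without that array. For Clec4n, Clec4e, Clec4d and Clec5a the highest of all 11 values was in knockout array 1.

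The mean of 5 neutrophil markers was also highest in knockout array 1 (7.90), against 6.05 to 6.98 in the other knockout arrays and 6.01 to 7.38 in wild type arrays. S100a8, S100a9 and Ngp had their highest value of all arrays there, while Camp and Mpo did not. The alarmin gene S100a8 read 9.64 in knockout array 1, 5.87 to 7.53 in the other knockout arrays and 5.94 to 8.52 in wild type arrays. Of the 5 neutrophil markers none was called between genotypes. The mean of the 9 lymphocyte and natural killer cell markers was also highest in knockout array 1 (6.06), with knockout array 2 next (6.04). The part of any of these cells in the lectin values was not tested. Clec4b1, an activating receptor near background (above it in 2 of 5 knockout and 4 of 6 wild type arrays), differed by 0.04 (SE 0.18), and Clec9a is described with its neighbours below.

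**Figure D4:**
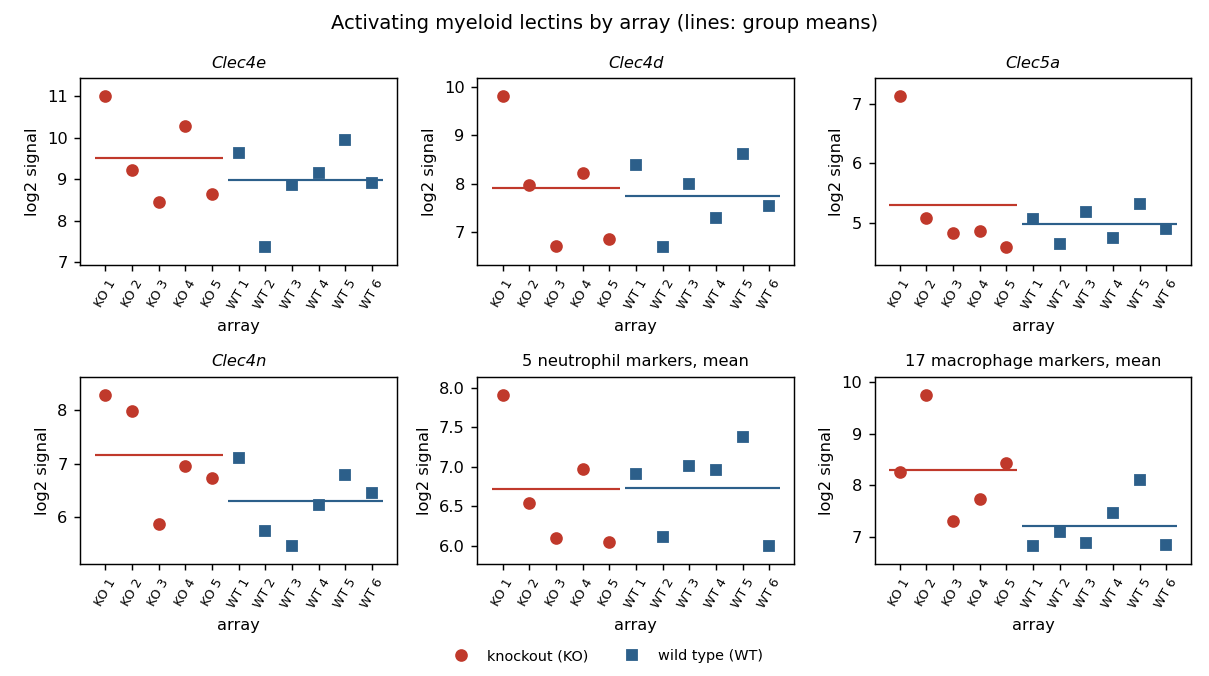
Log2 signal (y axis) of Clec4e, Clec4d, Clec5a and Clec4n and the means of 5 neutrophil and 17 macrophage markers in each array (x axis), knockout in red and wild type in blue, with lines at the group means. Knockout array 1 is highest for the 4 lectins and the neutrophil mean, and knockout array 2 for the macrophage mean.

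Clec12b, Clec9a and Clec1a on chromosome 6 varied together among the wild type arrays. In the RefSeq table for GRCm38.p6 the span of Clec12b, an inhibitory myeloid receptor, overlaps those of Clec1a, Clec1b and Clec9a. Clec9a encodes the receptor by which cross-presenting dendritic cells bind the actin of dead cells. Clec12b read 7.66, 6.92, 7.83, 7.53 and 7.16 in knockout arrays, against 6.62, 7.50 and 8.08 as the lowest, median and highest in wild type arrays. Clec9a read 6.96, 5.86, 7.39, 7.11 and 6.37 in knockout arrays and 5.42, 7.22 and 8.05 as the lowest, median and highest in wild type arrays. For both genes the knockout values lay inside the wild type range.

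Wild type arrays 2 and 4 were the lowest of all 11 for Clec12b, Clec9a and Clec1a, while wild type arrays 1, 3 and 6 were the highest of their group for all 3. Among knockout arrays Clec1a went its own way. Array 2 was lowest for Clec12b (6.92) and Clec9a (5.86), while Clec1a read 9.21 there and was lowest in array 5 (9.04). The differences between genotypes were 0.02 (SE 0.28) for Clec12b and -0.11 (SE 0.48) for Clec9a. Clec1b, whose span also overlaps that of Clec12b, did not share the wild type order, with its lowest value in wild type array 1. Of the 9 dendritic cell markers, 6 were above the mean of antigenomic rows in all arrays, Batf3 and Irf8 among them. Xcr1 and Flt3 were above it in 1 of 5 knockout arrays and 2 of 6 wild type arrays, and Itgae in 5 of 5 and 5 of 6.

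The rows named as negative controls, whose probe sequences were not used here, had means from 5.05 to 5.75 in knockout arrays and from 5.08 to 5.96 in wild type arrays. They were highest in knockout arrays 3 (5.75) and 4 (5.75) and wild type arrays 1 (5.94) and 6 (5.96), and 5.24 in wild type array 3. Which probes of these overlapping genes read which transcript was not tested.

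**Figure D5:**
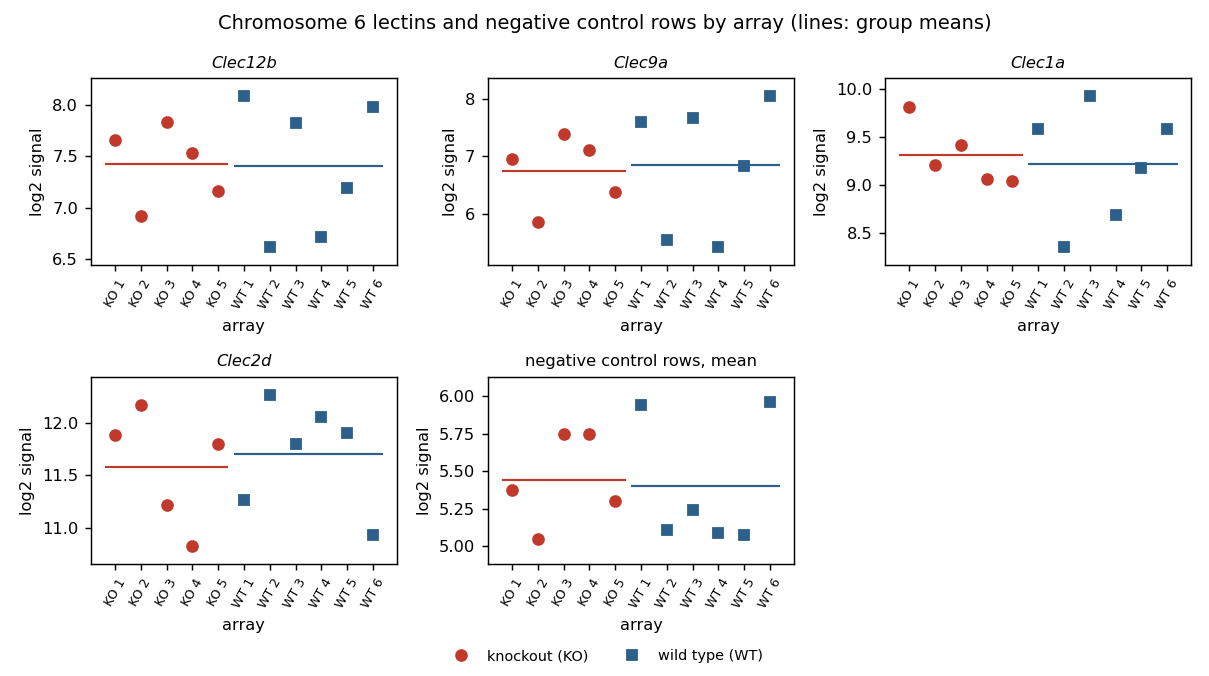
Log2 signal (y axis) of Clec12b, Clec9a, Clec1a and Clec2d and the mean of the negative control rows in each array (x axis), knockout in red and wild type in blue, with lines at the group means. Wild type arrays 2 and 4 are lowest for Clec12b, Clec9a and Clec1a, and Clec2d is lowest in knockout array 4 and wild type array 6.

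The Clec2 genes, grouped here by symbol alone, include those of the Clr proteins, several of which are ligands of NKR-P1 receptors on natural killer cells. The promoter window of Clec2l lies on chromosome 6 apart from the other listed Clec2 windows. None of the 8 measured was called, and their differences ran from -0.18 to -0.01. Clec2d, or Clr-b, the ligand of an inhibitory NKR-P1 receptor, read 11.88, 12.17, 11.22, 10.83 and 11.80 in knockout arrays and 10.93, 11.85 and 12.26 as the lowest, median and highest in wild type arrays. Its lowest values were in knockout array 4 and wild type array 6, 2 of the 4 arrays with the highest negative control means, and the other 2 came next. The difference was -0.12 (SE 0.27, exact permutation p = 0.695, n = 5 and 6). The others were Clec2e, which read below the mean of antigenomic rows in all 11 arrays, Clec2f, Clec2g, Clec2h, Clec2i, Clec2l and Clec2m. Of the 9 lymphocyte and natural killer cell markers none was called.

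The other Cd209 genes lie with Cd209b and Clec4g on chromosome 8, and none of the 6 was called. Cd209g had the smallest p among them. It read 5.69, 5.49, 5.46, 5.82 and 5.59 in knockout arrays and 4.91, 5.42 and 5.58 as the lowest, median and highest in wild type arrays. Knockout arrays 1, 4 and 5 exceeded every wild type array, with a difference of 0.25 (SE 0.13, exact permutation p = 0.058, n = 5 and 6). Cd209a, the mouse gene closest in use to human DC-SIGN on dendritic cells, differed by -0.15 (SE 0.11), and its highest value in knockout arrays was 6.60, against a wild type mean of 6.63. Cd209c, Cd209e and Cd209f differed by 0.12, -0.15 and 0.10. Cd209d read below the mean of antigenomic rows in all 11 arrays.

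Clec4b2, a little described relative of the Clec4a genes, was the lectin of smallest p among those with lower values. It read 4.29, 4.48, 4.47, 4.87 and 4.63 in knockout arrays and 4.52, 4.94 and 5.01 as the lowest, median and highest in wild type arrays. Only 1 of 5 knockout and 2 of 6 wild type arrays lay above the mean of antigenomic rows, so the difference of -0.34 (SE 0.13, exact permutation p = 0.028, n = 5 and 6) is one between values near background, and it was under a fold of 1.5.

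The 4 secreted members did not meet the rule. They are Clec3b, which encodes the plasminogen-binding protein tetranectin, the bone growth factor gene Clec11a, the cartilage gene Clec3a, and Clec18a. Their differences ran from -0.36 for Clec3a to 0.09 for Clec11a, and neither Clec3a nor Clec3b read above the mean of antigenomic rows in all arrays. Clec16a carries the family's name but is known as a regulator of membrane traffic and of the autophagy of mitochondria, with no sugar binding established. It read 8.09, 8.61, 8.29, 8.23 and 8.06 in knockout arrays and 8.05, 8.26 and 8.39 as the lowest, median and highest in wild type arrays. Its values were alike in range, and the difference was 0.02 (95% interval -0.23 to 0.28, exact permutation p = 0.857, n = 5 and 6).

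Downstream of the lectins, 1 of 27 measured genes of C-type lectin receptor signalling was higher in knockout by the rule and 0 were lower. Over all clusters the rule called 0.671% higher and 0.356% lower. Of the 27 genes, 22 had differences above 0 and 5 below, with a median of 0.20. The called gene was Nlrp3, the inflammasome sensor, which averaged 7.95 ± 0.68 (SD, n = 5) in knockout arrays and 6.97 ± 0.43 (SD, n = 6) in wild type arrays, a difference of 0.99 (SE 0.29). The kinases Prkcd (0.56, SE 0.19) and Syk (0.46, SE 0.21) and the phosphatase Ptpn11 (0.20, SE 0.09) followed in order of p and were under a fold of 1.5. The adaptor genes Fcer1g and Tyrobp, which link these receptors to Syk, differed by 0.33 (SE 0.21) and 0.69 (SE 0.46), and the scaffold Card9 by -0.15 (SE 0.15). Both adaptors had their highest value in knockout array 2, at 10.92 and 9.11.

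Of 12 measured ligands and partners, 1 was higher by the rule, Itgb2, the beta chain of leukocyte integrins (0.75, SE 0.32). The 12 had a median of 0.03, and the rule called 0.671% of all clusters higher. Of 43 other genes with a C-type lectin domain, 1 was higher, Colec10, a secreted collectin of the liver, which averaged 8.73 ± 0.53 (SD, n = 5) in knockout arrays and 8.10 ± 0.36 (SD, n = 6) in wild type arrays. The 43 genes had a median of -0.03, close to that of all clusters. The mannose receptor Mrc1, which sinusoidal endothelium and Kupffer cells share, averaged 12.08 ± 0.18 (SD, n = 5) in knockout arrays and 12.12 ± 0.11 (SD, n = 6) in wild type arrays. The next genes by p were Prg2 (-0.32), Acan (-0.32) and Ncan (-0.33), each under a fold of 1.5. The 8 stellate cell markers had a median of 0.36, with 7 above 0 and none called.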

How the data were processed

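Gene expression in LSEC was measured on Mouse Clariom S arrays, 5 knockout and 6 wild type, grouped by their titles. Per the labels' protocols, RNA was extracted with Trizol and labelled with biotin. The submitters' processing notes name Affymetrix Expression Console and RMA, a method that normalizes probe signals by quantiles and draws weak signals together. The deposited signals, 2.15 to 13.79, were read as log2. Of 28846 rows, 6640 control rows were left out and 22206 clusters were tested, of which 19572 had a symbol. Scanner files were not used here. The members and lists were chosen with earlier results of these data known. The model, with genotype as its sole term, was fitted in limma 3.58.1 (R 4.3.3), and its p-values were adjusted by Benjamini-Hochberg across the clusters tested. Single genes also had an exact two-sided permutation test on the 462 splits of the arrays, with 0.0022 as the smallest p. The study names no test for its rule of a 1.5-fold change, so the limma p was used. Differences are knockout minus wild type. Members described in full were those meeting the rule, the 4 of smallest p among the rest, the 6 of highest signal and Clec16a; Clec4a2, Clec4d, Clec5a, Clec9a, Clec12b and Cd209b were added after their values were seen. Of each list up to 4 genes of smallest p were named, and adaptors, ligands and markers beside a lectin were added likewise. The dectin gene Clec7a and protein sequences were not used here. Beyond choosing the brightest members, signals of different clusters were not compared. The limma script was tested on simulated arrays. Alternatives were other normalizations, weights, variance models, filters, thresholds, covariates, a block by replicate number and fits without 1 array.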

Additional observations from a re-analysis of the deposited data

Results flagged for a closer look

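Within each genotype, every lectin's highest and lowest value was compared with its neighbours by Dixon's test at the 95% level, over 78 pairs of a gene and a group. Chance flags about 1 in 20 such groups, and 3 values stood apart. Clec5a read 7.12 in knockout array 1, and the next knockout array read 5.09. Clec18a read 5.57 in knockout array 2, below 6.08 in the next. Clec4b2 read 4.52 in wild type array 3, below 4.92 in the next, both below the mean of antigenomic rows of their array.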

How the results depend on the processing

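Over 23 alternatives, the 3 called lectins kept their sign. The number higher by the study's rule ran from 2 to 6 when 1 array was left out (2 without knockout array 2, 5 without wild type array 5, 6 without knockout array 3), and was 5 with repeated quantile normalization, 5 with median centring, 3 with the replicate block, and 2 with array weights and at a p of 0.01, both without Clec4a1. It was 6 with the hepatocyte mean as a covariate and 0 with the macrophage mean. Both means differed between genotypes (-0.93 and 1.09), so these fits cannot tell either mean from genotype. The number lower was 2 with the macrophage mean (Clec2d and Clec3a) and 1 at a fold of 1.2 (Clec4b2). With the hepatocyte mean 1 lectin, Clec12a, passed an adjusted p of 0.05 in limma (0.035). The negative control mean as a covariate, added after the data were seen, gave 4 higher. The replicate block left Clec4a1 uncalled (0.73) and called Clec4n (0.90), while Clec9a was 0.13; wild type array 6 has no partner there and adds nothing. Same-numbered arrays deviated from their group means with correlations from -0.32 to 0.39, and no knockout array correlated best with its own number. This check cannot show whether same-numbered samples shared more than the number.

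Over the 39 lectins the sign turned for 10 with the macrophage mean, 9 with the hepatocyte mean, 5 with repeated quantile normalization, 5 with array weights and 3 with median centring, none of them called. Among the 20 members described in full, the turned values were -0.0517 for Clec16a, -0.00315 for Clec1a and 0.00362 for Clec4g with repeated quantile normalization, and 0.0385 for Clec14a and 0.0228 for Clec4g with median centring. With array weights they were -0.0287 for Clec16a, -0.0110 for Clec1a and -0.23 for Clec4d. With the macrophage mean they were -0.0443 for Clec16a, -0.21 for Clec4a2, -0.22 for Clec4a3, -0.17 for Clec4d and 0.68 for Clec9a. With the hepatocyte mean they were -0.25 for Clec12b, 0.21 for Clec14a, 0.0130 for Clec1b, 0.25 for Clec2d and 0.0300 for Clec4g. With the negative control mean they were -0.0291 for Clec12b and 0.0300 for Clec14a. On leaving out 1 array the ranges were -0.14 to 0.16 for Clec12b, -0.14 to 0.13 for Clec14a, -0.0642 to 0.0733 for Clec16a, -0.0820 to 0.23 for Clec1a, -0.27 to 0.0675 for Clec2d, -0.31 to 0.46 for Clec4d, -0.05 to 0.00917 for Clec4g, -0.13 to 0.50 for Clec5a and -0.40 to 0.13 for Clec9a. The other 11 of the 20 members described in full kept their sign when any 1 array was left out. The causes were not tested. Of the 39 lectins, 28 read above the mean of antigenomic rows in all 11 arrays and 4 above the highest such row in all 11.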
